A study of Homo sapiens with 8 samples.

Results

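Which genes end at another level after retinoic acid when RNF20 is depleted was read from 3 of the 8 arrays of the study. They are the 2 arrays titled as RA-treated siRNF20 cells and, of the 2 titled as RA-treated siLacZ cells, the GF120 array. The second RA siLacZ array, GF117, is shown apart because its values correlated poorly with those of all other arrays. The 4 DMSO arrays stand beside the comparison. Total RNA was measured from NTera2/D1, a cell line of human embryonal carcinoma, on exon arrays, which carry short probe sets for single exons. Each of the 4 groups held 2 arrays, numbered GF117 and GF120, which the growth protocol calls biological duplicates. The depleted cells carried siRNF20, a small interfering RNA against RNF20, and received 10 µM RA for 72 h. Their control carried siLacZ, which targets a bacterial gene that human cells lack, and received the same RA. The DMSO groups carried siRNF20 or siLacZ and received the solvent in place of RA. All cells are of the 1 line and all carried an siRNA, and the result is a depletion of the transcript and not a deletion.

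RNF20 is the E3 ligase that, together with RNF40, attaches a single ubiquitin to histone H2B in transcribed genes. USP44 is a deubiquitylase that removes this ubiquitin. Retinoic acid binds nuclear receptors and drives embryonal carcinoma cells out of their stem-cell-like state, with loss of factors such as NANOG and gain of HOX genes and of enzymes that degrade RA.

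The median of the deposited intensities was 18.4 for the GF117 RA siLacZ array and 17.2 for the other 7. Gene values (the median log2 intensity over a gene's probe sets) of those 7 arrays correlated with one another at 0.908 to 0.974, but at only 0.078 to 0.185 with that array. The 2 RA siRNF20 arrays correlated at 0.957 with each other, and at 0.959 (GF117) and 0.948 (GF120) with the GF120 RA siLacZ array. The comparison in RA therefore rests on 1 control array, whose spread is taken from the other groups, and differences between the GF numbers enter it in part. Arrays have no depth in counts, so that their number limits the precision, and p-values measure the spread between these arrays. A permutation test of 2 arrays against 1 could not go below an exact two-sided p of 0.333, so limma was fitted over 18732 genes and 7 arrays. Markers of embryonal carcinoma cells were at mixed levels after RA. LIN28A, an RNA-binding protein, stood at 11.85, 11.68 and 11.44 and SALL4, a zinc finger factor, at 9.61, 9.57 and 9.86 in the 2 siRNF20 arrays and the siLacZ array, while the defining marker POU5F1 stood at 4.62, 5.73 and 5.68, against 7.43 to 7.75 in DMSO.

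RNF20 itself was lower in both RA siRNF20 arrays. Its log2 intensity was 6.27 (GF117) and 5.89 (GF120) in RA siRNF20 cells, against 8.10 in the GF120 RA siLacZ array. In DMSO it stood at 6.48 and 5.98 with siRNF20, against 8.24 and 8.09 with siLacZ. The groups did not overlap in either treatment, and all 28 of its probe sets were lower in both siRNF20 arrays, with RA and with DMSO. The difference in RA was -2.02 (SE 0.29, n = 2 and 1), a level 4.06-fold lower, with a limma adjusted p of 0.110 over all genes. With the GF number as a replicate block it was -2.19 and passed (adjusted p = 0.00287). In DMSO it was -1.94, which passed with the block alone (adjusted p = 0.00152). The GF117 RA siLacZ array read 6.08. With all 8 arrays the difference was thus -1.01 (adjusted p = 0.546), and within GF117 it was 0.19. A level of 6.08 is near those with siRNF20, but also near the median over all genes on the other 7 (6.34 to 6.50). Because values of the array shown apart correlated with theirs at only 0.078 to 0.185, its reading cannot show whether RNF20 was depleted there.

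RNF40, the partner of RNF20 in the ligase, stood at 7.74 and 7.48 in RA siRNF20 cells, against 7.49 in RA siLacZ cells (0.12, SE 0.23, adjusted p = 0.925). USP44 had 9.42 and 8.81 with siRNF20 against 8.72 with siLacZ, a difference of 0.39 (SE 0.27, adjusted p = 0.766). The RNF40 levels lie on both sides of the control, and the GF120 siRNF20 level of USP44 differs from it by less than the siRNF20 arrays differ from each other.

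**Figure D1:**
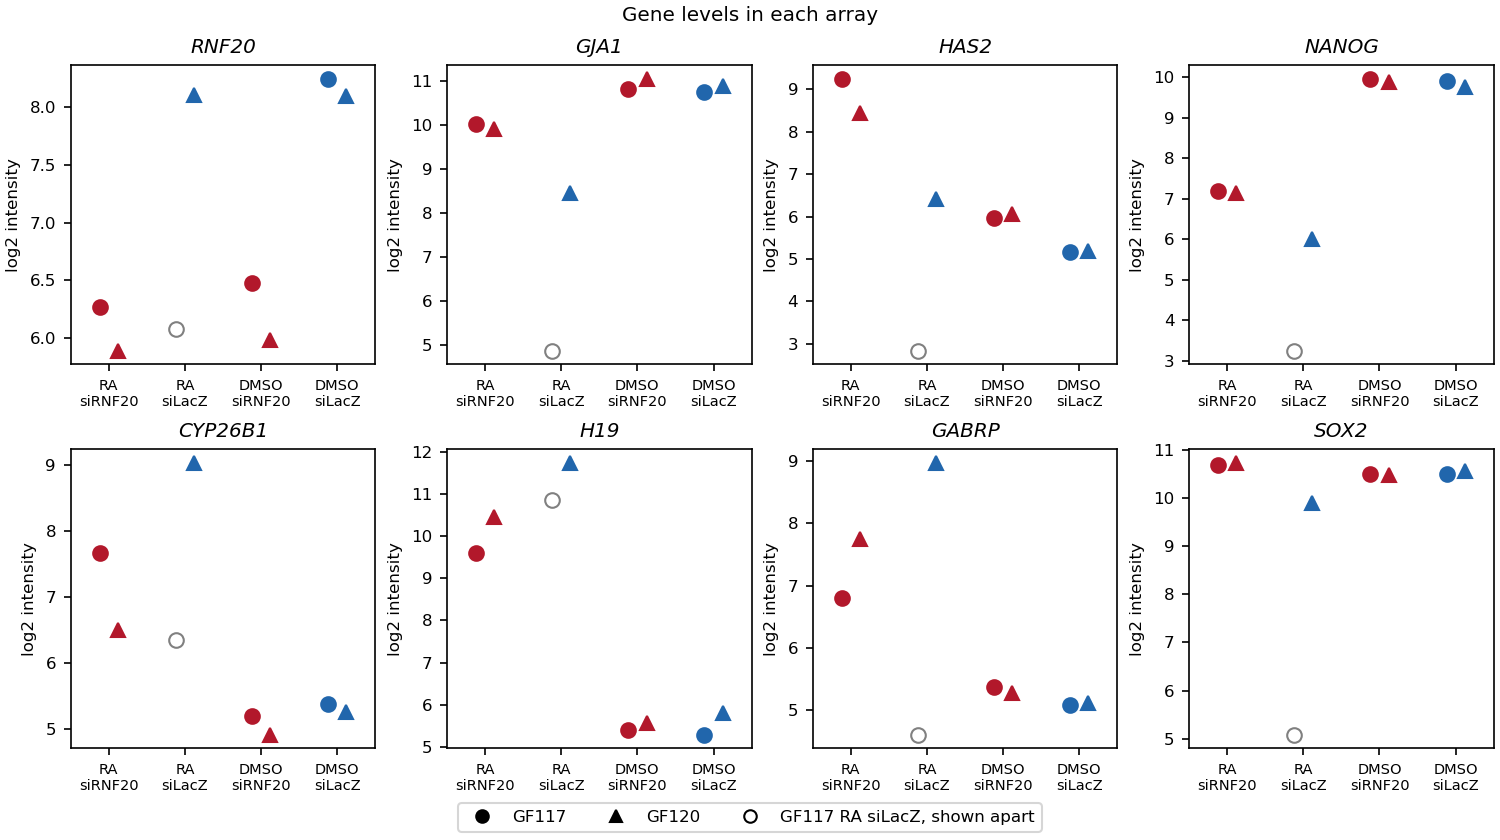
Log2 intensity (vertical axes, each with its own range) of 8 genes in each array, by treatment and siRNA; circles are GF117, triangles GF120, and the open circle is the GF117 RA siLacZ array. RNF20 stands at 6.27 and 5.89 in RA siRNF20 cells, against 8.10 in the GF120 RA siLacZ array, and GJA1, HAS2, NANOG and SOX2 are higher and CYP26B1, H19 and GABRP lower than in that array.

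After RA, 2 genes passed the test between siRNF20 and siLacZ cells, and both were higher with siRNF20. They are GJA1, which encodes the gap junction protein connexin 43, and CCDC190, a coiled-coil domain gene. They make up 0.0107% of the 18732 genes tested, and no gene passed as lower (0%). At an unadjusted p under 0.05 there were 1485 genes, the smallest adjusted p was 0.0474, and the median difference of all genes was -0.01. In DMSO no gene passed limma's test (0 calls, with 519 at an unadjusted p under 0.05), and the difference between the siRNF20 effects in RA and in DMSO gave 0 calls as well (737 unadjusted). Arrays of one GF number deviated together from their group means, and with that number as a replicate block 232 genes passed in RA, 162 higher (0.865%) and 70 lower (0.374%). The block gave 1 call in DMSO, RNF20 as lower (0.00534%), and 4 for the difference between treatments, GJA1 and RPL9 as higher (0.0107%) and LMO3 and MEST as lower (0.0107%). MEST, an imprinted gene, read 9.33 and 8.95 in RA siRNF20 cells, against 9.89 in RA siLacZ cells, but 8.02 and 7.90 in DMSO siRNF20 cells, against 7.07 and 6.70 in DMSO siLacZ cells (difference -1.98, adjusted p = 0.0349). LMO3, a LIM-domain transcription cofactor, had a difference of -2.33 (adjusted p = 0.0349). RPL9, a ribosomal protein gene, had one of 1.10 (adjusted p = 0.0358). With the block, all 12 of the highest and 9 of the 12 lowest genes described below passed, the exceptions being LIPC, APOBEC3H and MAL. Below, an adjusted p is that without the block, and genes that passed with it are named as such.

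GJA1 had a log2 intensity of 10.02 and 9.91 in RA siRNF20 cells, against 8.46 in the GF120 RA siLacZ array. In DMSO it was at 10.81 and 11.04 with siRNF20, against 10.74 and 10.89 with siLacZ. RA siRNF20 cells thus lay between RA siLacZ cells and the DMSO arrays, with no overlap. GJA1 was higher by 1.51 (SE 0.16, n = 2 and 1, adjusted p = 0.0474) or 2.85-fold, in 4 of 4 probe sets. The difference in DMSO was 0.11, and that between the 2 treatments, 1.40, did not pass (adjusted p = 0.453) without the block and was 1.44 (adjusted p = 0.0349) with it. With the block GJA1 in RA was at 1.56 (adjusted p = 0.00287). Without the block, the call was lost with all 8 arrays (adjusted p = 0.546) and without any 1 of the other 6 arrays: DMSO siLacZ GF117 (0.134) or GF120 (0.182), DMSO siRNF20 GF117 (0.0764) or GF120 (0.0676), RA siRNF20 GF117 (0.0706) or GF120 (0.0595). GJA1 was also 1.18 with the mean over probe sets and 0.96 with a stricter filter on dim ones.

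CCDC190 read 5.28 and 5.26 in RA siRNF20 cells, against 1.92 in RA siLacZ cells and 4.72 to 4.99 in the 4 DMSO arrays. Only the GF120 RA siLacZ array is apart, and its value lies below the level of 3.97 under which probe sets were counted as dim. The difference of 3.35 (SE 0.36, adjusted p = 0.0474) rests on 1 probe set of 6. It was 0.76 with no filter on dim probe sets and 1.47 with an offset of 16, both without a call, and 2.20 with all 8 arrays (adjusted p = 0.546). The GF117 RA siLacZ array read 4.23. Leaving out any 1 of the other 6 arrays ended this call too: DMSO siLacZ GF117 (adjusted p = 0.134) or GF120 (0.182), DMSO siRNF20 GF117 (0.0764) or GF120 (0.0676), RA siRNF20 GF117 (0.0890) or GF120 (0.0761).

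Beyond these calls, genes are described by their level in each array. Both RA siRNF20 arrays lay above the siLacZ array for 6184 genes (33%) and below it for 6342 (33.9%). Both lay at least 2-fold above it for 156 genes (0.833%) and at least 2-fold below it for 53 (0.283%). The same count in DMSO, added after the data were seen, gave 78 genes (0.416%) above and 14 (0.0747%) below the GF120 siLacZ array, and 106 (0.566%) and 37 (0.198%) against the GF117 one. Among genes with a level of at least 6, the RA counts were 71 and 49, against 17 and 7 or 13 and 18 in DMSO. The 2-fold counts in RA were 64 and 8 with all 8 arrays and 8460 and 2068 against the GF117 RA siLacZ array. Without RA siRNF20 GF117 they were 456 and 316, and without RA siRNF20 GF120 438 and 210.

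**Figure D2:**
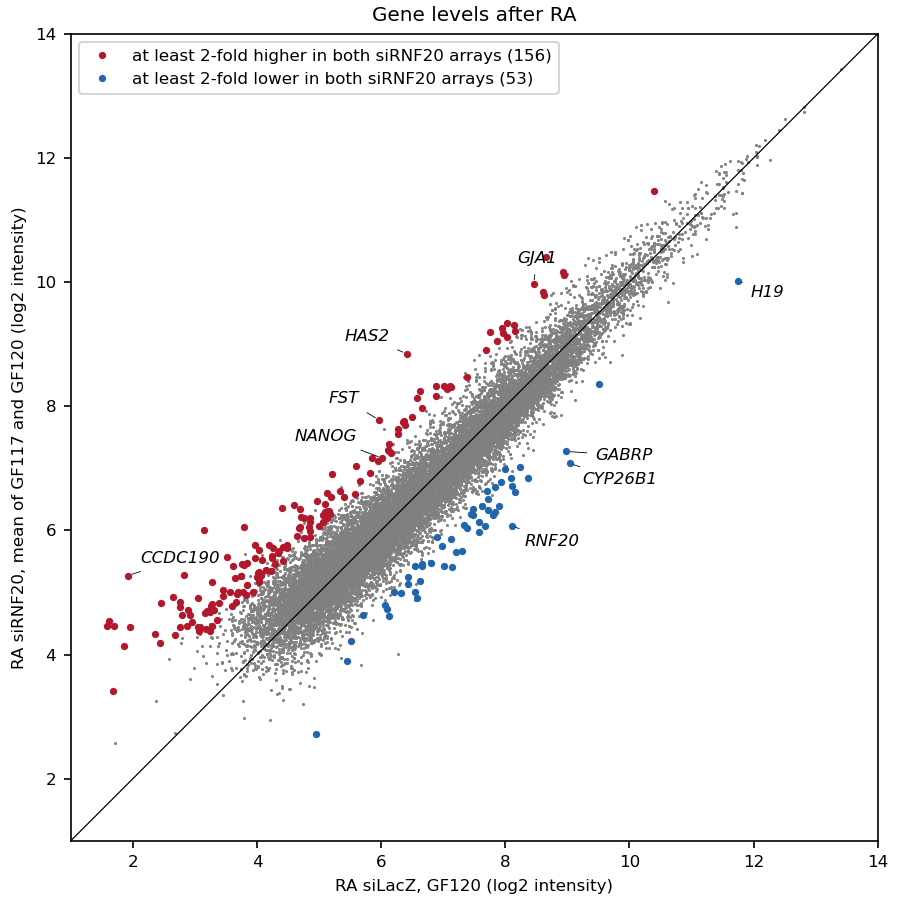
Each point is 1 of the 18732 genes, with its log2 intensity in the GF120 RA siLacZ array on the horizontal axis and the mean of the 2 RA siRNF20 arrays on the vertical axis. The line marks equal levels; 156 genes (red) were at least 2-fold higher in both siRNF20 arrays and 53 (blue) at least 2-fold lower.

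The 12 genes with the highest and the 12 with the lowest differences were taken from 54 and 41 that met the naming rule (both siRNF20 arrays at least 2-fold to 1 side, 3 or more probe sets and a level of at least 6). LIN7B was the last inside on the higher side (1.44) and SRP19 the first outside (1.39), and MAL and LMO3 stood on either side of the other edge (both -1.55 when rounded). Without the block GJA1 passed the test, and the other 23 did not, with adjusted p between 0.0997 and 0.461. With it, those that passed had adjusted p between 0.00287 and 0.0386. Their folds in size ran between 2.71 and 5.40.

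The GF120 RA siLacZ array was the lowest of all 7 in 11 of the 12 highest genes and the highest of 7 in 10 of the 12 lowest. This edge position is largely set by the naming rule. Over all genes, that array was the lowest in 20% and the highest in 16.8%. Within GF117, the RA siRNF20 array minus the RA siLacZ array shown apart gave the same sign for 10 of the 12 highest and for 2 of the 12 lowest. Over all 18732 genes it did so for 8066, a count that takes both signs together. With the array shown apart as the only control, 8460 genes were at least 2-fold higher in both RA siRNF20 arrays and 2068 at least 2-fold lower. Among genes that far apart a positive sign is thus the more frequent one, but the sign depends on the gene. The array shown apart correlated at only 0.078 to 0.185 with the others, so signs within GF117 cannot decide the direction of any gene. The direction of the named genes is that against the GF120 control alone.

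HAS2, the enzyme gene for hyaluronan, an extracellular matrix sugar, had the highest difference of the set. It reached 9.25 and 8.44 in RA siRNF20 cells, against 6.41 in RA siLacZ cells. In DMSO it read 5.98 and 6.07 with siRNF20, against 5.16 and 5.18 with siLacZ. Both RA siRNF20 arrays of HAS2 lie above every other array, and siRNF20 arrays lie above siLacZ arrays in DMSO as well. The difference was 2.43 (SE 0.33, adjusted p = 0.0997), 5.40-fold, in 6 of 6 probe sets, and 0.85 in DMSO.

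FST, the gene of follistatin, a secreted protein that binds activin, stood at 8.18 and 7.38 in RA siRNF20 cells, against 5.97 in RA siLacZ cells (1.81, SE 0.43, adjusted p = 0.261). All 10 of its probe sets were higher in both siRNF20 arrays, whose levels lay within or near the DMSO arrays (7.29 to 8.27). EEF1B2, a translation elongation factor gene, had 9.38 and 9.01 with siRNF20, against 7.75 with siLacZ and 8.92 to 9.11 in DMSO (1.44, SE 0.21, adjusted p = 0.113). TMEM126B, a factor in the assembly of respiratory complex I, had 7.14 and 6.92 against 5.59, with 7.02 to 7.49 in DMSO (1.45, adjusted p = 0.147). LIN7B, a scaffold protein of cell junctions, had 8.23 and 8.41 against 6.88, with 8.10 to 8.39 in DMSO (1.44, adjusted p = 0.113). In these 4 genes the siLacZ array is the one that is low. How far depends on the probe sets used: LIN7B was at 0.17 with no filter on dim probe sets, TMEM126B at 0.45 with a stricter filter and EEF1B2 at 0.65 with the mean over probe sets. EEF1B2 and FTH1P5, a ferritin pseudogene (1.50), have near-identical copies that can share signal.

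CCER1 (2.27), the pancreatic transcription factor gene PDX1 (1.96), the opioid receptor gene OPRM1 (1.81) and TFF1 (1.44), a secreted trefoil protein, rest on 3 to 5 probe sets with control levels between 3.79 and 4.75. CCER1 and PDX1 each have 1 probe set that was lower in both siRNF20 arrays. With no filter on dim probe sets CCER1 was at 0.11, PDX1 at 0.69 and TFF1 at 0.34, and with a stricter filter OPRM1 was at 0.37. OPRM1 (7.80) and PDX1 (5.99) were higher in the GF117 RA siLacZ array than in the GF117 RA siRNF20 array (6.24 and 5.93), the 2 exceptions in sign within GF117. LOC729217, an uncharacterised locus, differed by 1.56 in 4 of 4 probe sets.

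As a measure of the control array as a whole, 79 genes of cytosolic ribosomal proteins, a list added after the data were seen, had a median level of 10.2 and 9.92 in RA siRNF20 cells, against 9.72 in RA siLacZ cells and 10.0 to 10.1 in DMSO. Of these 79, 48 were higher in both siRNF20 arrays, 14 were lower, and in 33 the control was the lowest of 7 arrays. Over all genes, 33% were higher and 33.9% lower in both, and the control was the lowest in 3738 of 18732 (20%). At the median these genes, which most cells express strongly, thus stand lowest in the same array as the higher set. The part of that array in the differences was not tested.

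Among the lower genes, CYP26B1, an enzyme that breaks down RA, was at 7.67 and 6.49 in RA siRNF20 cells, against 9.03 in RA siLacZ cells. In DMSO it read 5.20 and 4.92 with siRNF20, against 5.38 and 5.26 with siLacZ. The 2 siRNF20 arrays differ by over 1 log2 unit but lie between the DMSO arrays and the RA control. The difference was -1.95 (SE 0.42, adjusted p = 0.204) in 8 of 8 probe sets. The GF117 RA siLacZ array read 6.35, so that within GF117 CYP26B1 was higher with siRNF20 by 1.32.

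H19, an imprinted long non-coding RNA of early embryonic tissues, had 9.59 and 10.45 in RA siRNF20 cells, against 11.74 in RA siLacZ cells. All 4 DMSO arrays read between 5.29 and 5.79. H19 differed by -1.72 (SE 0.35, adjusted p = 0.175) in 17 of 17 probe sets. The GF117 RA siLacZ array read 10.86. The GF117 RA siRNF20 array minus that array was below 0 for 2 genes of the lower set, H19 (-1.27) and SLC6A2 (-0.13).

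GABRP, a subunit gene of the GABA-A receptor, had 6.80 and 7.75 with siRNF20, against 8.98 with siLacZ, and 5.07 to 5.37 in DMSO (-1.71, SE 0.36, adjusted p = 0.195, 15 of 15 probe sets). KCNIP1, a potassium channel partner, had 5.43 and 5.90 against 7.31, with 4.81 to 4.89 in DMSO (-1.64, adjusted p = 0.155). SLC6A2, the noradrenaline transporter gene, had 5.89 and 6.25 against 7.68, with 4.66 to 5.05 in DMSO (-1.60, adjusted p = 0.161). MYOF, a membrane repair protein of the ferlin family, differed by -1.60 with 41 of 46 probe sets lower, and PLEKHG1 by -1.60 with 26 of 26. The remaining members were MAL, a proteolipid of membrane rafts (-1.55), the neuronal calcium-binding protein gene NECAB2 (-1.55), the antiviral deaminase gene APOBEC3H (-1.67) and LIPC, the hepatic lipase (-1.73). In NECAB2 the RA siRNF20 arrays (5.08 and 4.92) lay below every DMSO array (5.69 to 6.75). In DMSO NECAB2 read 5.69 and 5.72 with siRNF20, against 6.23 and 6.75 with siLacZ (-0.79). PLEKHG1 read 4.80 and 4.98 against 5.63 and 5.41 there (-0.63). Neither passed in DMSO, where 3 of the 12 lowest genes had the opposite sign. In LIPC the GF117 RA siRNF20 array (4.84) lay within the DMSO range (4.33 to 5.52). APOBEC3H and LIPC rest on 3 probe sets each.

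**Figure D3:**
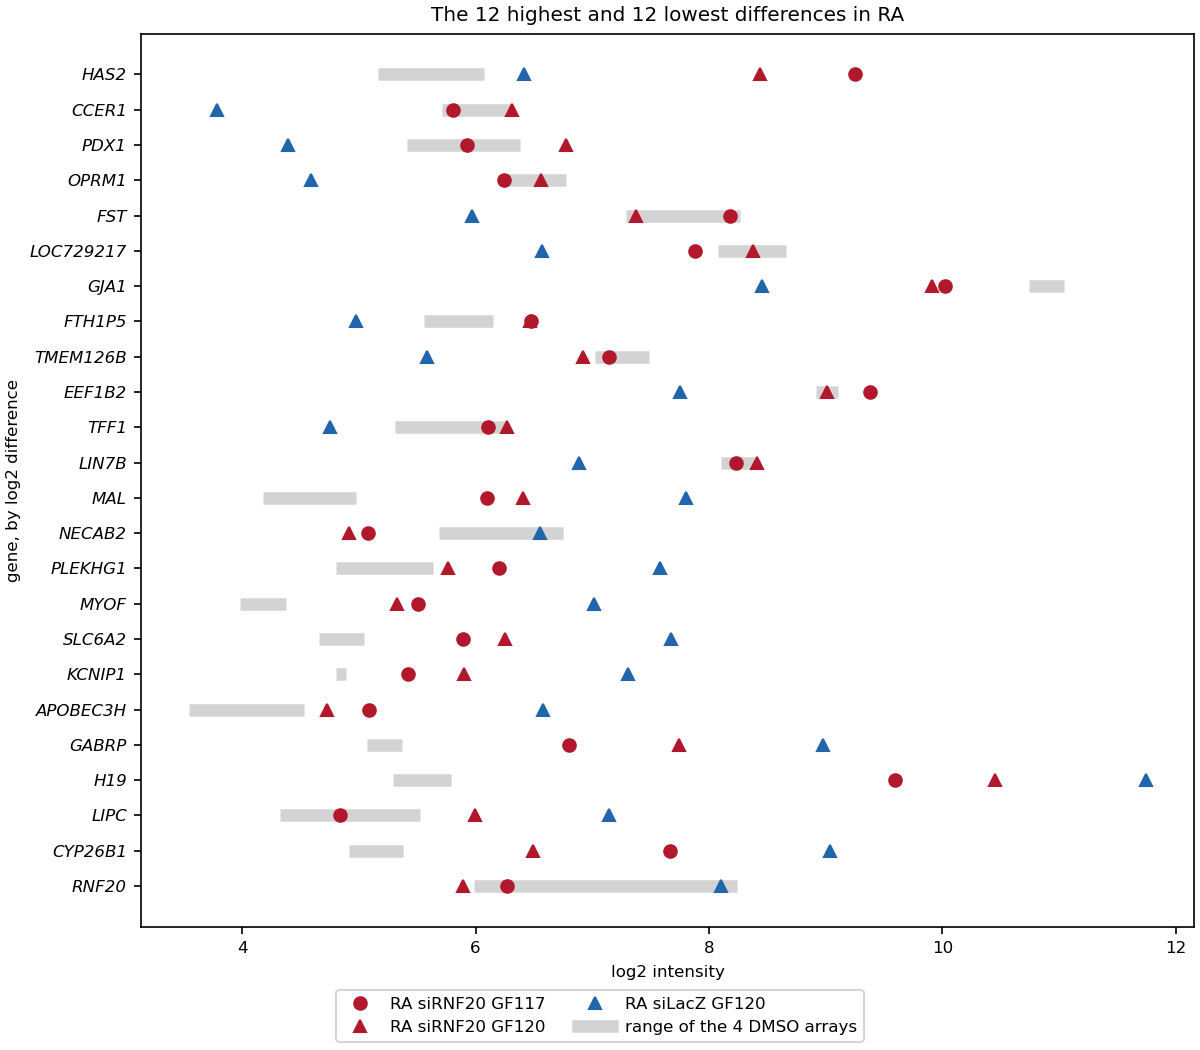
Log2 intensity (horizontal axis) of the 12 genes with the highest and the 12 with the lowest difference in RA; red marks are the 2 RA siRNF20 arrays, the blue triangle is the GF120 RA siLacZ array and the grey bar spans the 4 DMSO arrays. For HAS2 the siRNF20 arrays (9.25 and 8.44) lie above all others, and for KCNIP1, SLC6A2, MYOF, GABRP, H19 and CYP26B1 they lie between the DMSO bar and the siLacZ array.

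The response of these genes to RA in each background shares arrays with the comparison above and gives no independent support to it. H19 rose with RA by 4.54 in siRNF20 cells and by 6.20 in siLacZ cells, GABRP by 1.95 and 3.89, and CYP26B1 by 2.02 and 3.72, each past limma's threshold (adjusted p between 5.01e-05 and 0.0104). GJA1 fell by 0.96 in siRNF20 cells and by 2.36 in siLacZ cells, both called. HAS2 rose by 2.82 in siRNF20 cells, and its 1.24 in siLacZ cells did not pass (adjusted p = 0.0755). Without the block none of the 24 differences between the RA and DMSO effects of siRNF20 passed, and with it that of GJA1 did.

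Pluripotency genes were described as a list of 35 measured members. Their median difference in RA was 0.14, beside -0.01 for all genes. In RA, 19 of the members (54.3%) were higher in both siRNF20 arrays and 7 (20%) were lower, against 33% and 33.9% of all genes. None passed the test without the block, and 5 passed as higher with it: CRIPTO (adjusted p = 0.00623), NANOG (0.0139), SOX2 (0.0139), OTX2 (0.0183) and GDF3 (0.0317), a TGF-beta family ligand. Over all genes, 0.865% passed as higher with the block. The list's median level was 6.68 and 6.85 with siRNF20, against 6.38 with siLacZ and 7.56 to 8.29 in DMSO. Its median difference was 0.20 in GF117 and 0.14 in GF120 against the control, and -0.02 in DMSO. In RNA from whole cultures, fewer cells of a kind and less RNA per cell cannot be told apart.

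NANOG, a core pluripotency factor, stood at 7.19 and 7.14 in RA siRNF20 cells, against 6.02 in RA siLacZ cells, and at 9.76 to 9.96 in DMSO (1.15, SE 0.19, adjusted p = 0.113, 2 of 2 probe sets). SOX2, its partner and a neural progenitor factor, had 10.69 and 10.73 against 9.90, with 10.49 to 10.55 in DMSO (0.81, SE 0.13, adjusted p = 0.113), with 4 of 6 probe sets higher and 2 lower in both siRNF20 arrays. NANOG levels with siRNF20 lie between the control and DMSO, and those of SOX2 above the DMSO arrays. OTX2, a factor of the early epiblast and forebrain, read 7.30 and 7.03 against 5.85, with 8.39 to 9.03 in DMSO (1.32, adjusted p = 0.161). CRIPTO, a NODAL co-receptor gene with near-identical copies, read 8.02 and 8.63 against 7.01 (1.31, adjusted p = 0.161). DNMT3B, a DNA methyltransferase of stem cells, was at 9.82 and 9.42 against 8.84 (0.77, adjusted p = 0.271).

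Other members of the list did not share this order. POU5F1 (OCT4) stood at 4.62 and 5.73 with siRNF20, against 5.68 with siLacZ, so that its siRNF20 arrays lay on both sides of the control (-0.50, adjusted p = 0.790, 3 probe sets). Of the 3 POU5F1 probe sets, 1 was higher and 1 lower in both siRNF20 arrays. SALL4 was at -0.27 and DPPA2 at -0.80, while L1TD1, an RNA-binding protein, was at 0.12. EPCAM, a surface protein of embryonal carcinoma cells and epithelia, read 8.29 and 8.37 with siRNF20, against 7.11 with siLacZ (1.22, SE 0.21, adjusted p = 0.116, 16 of 17 probe sets). It was the most different of 21 epithelial genes. Of these, 6 (28.6%) were higher and 7 (33.3%) lower in both siRNF20 arrays, against 33% and 33.9% of all genes.

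Of 30 measured genes of retinoid metabolism and RA targets, 11 (36.7%) were higher and 13 (43.3%) lower in both siRNF20 arrays. All genes had shares of 33% and 33.9%. The list's median was 0.04 for the mean of the 2 siRNF20 arrays minus the control. For each siRNF20 array alone minus the same control, its median was -0.13 in GF117 and -0.12 in GF120. Medians of the single arrays and of their mean need not share a sign. Beside CYP26B1, the orphan nuclear receptor gene NR2F2 had 6.65 and 6.61 with siRNF20, against 7.70 with siLacZ and 5.56 to 6.03 in DMSO (-1.07, adjusted p = 0.280). Its relative NR2F1 read 8.07 and 7.74 against 8.74 (-0.83), and BCO1, which cleaves beta-carotene, 8.28 and 8.04 against 8.90 (-0.74). DHRS3, a retinaldehyde reductase, was at -0.67. CYP26A1, the main RA-degrading enzyme, read 10.33 and 10.29 with siRNF20, against 10.43 with siLacZ (-0.12), and the receptor gene RARB 9.92 and 9.60 against 9.44 (0.32). Of the 2 CYP26 genes given here, CYP26B1 thus had the larger difference, but the difference between the 2 genes was not tested.

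Of 36 HOX genes, which pattern the body axis, 12 (33.3%) were higher and 17 (47.2%) lower in both siRNF20 arrays (median -0.07). The shares of all genes were 33% and 33.9%. HOXA2, a hindbrain gene, had 8.22 and 7.47 with siRNF20, against 8.82 with siLacZ and 2.58 to 3.58 in DMSO (-0.97, adjusted p = 0.644). HOXD11, a posterior member, had 5.86 and 5.06 against 6.31 (-0.85). The HOX level of RA siRNF20 cells (median 6.22 and 6.18) was near that of RA siLacZ cells (6.30), and both were above the DMSO arrays (4.99 to 5.24).

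Outside the pluripotency list, 16 list members and RNF20 passed with the block. As higher these were GJA1, EPCAM, VIM, PCNA, RFC4, FST, PERP, SPRY2, HMGCS1, MSMO1, B2M, MTHFD2 and XBP1, and as lower CYP26B1, PDGFRA and H2BC14, with adjusted p up to 0.0485. Over all genes, 0.865% passed with the block as higher and 0.374% as lower. No HOX gene and no gene of the neuron, trophoblast, mesenchymal, H3 methylation, G2 and M phase, interferon or NOTCH and WNT lists passed with it. Lineage lists showed few members that stood apart. For comparison, 33% of all genes were higher and 33.9% lower in both siRNF20 arrays. Of 33 neural progenitor genes, 13 were higher and 13 lower (median 0.06), with VIM, an intermediate filament gene, at 9.20 and 8.92 against 7.86 (1.20, adjusted p = 0.195). Of 38 neuron genes, 13 were higher and 16 lower (median -0.06), with DCX, a protein of migrating neurons, at 8.29 and 8.05 against 8.75 (-0.58). Of 30 mesoderm and endoderm genes 17 were higher and 7 lower, while 2 genes with larger differences were among the lower ones. MEOX1, a somite homeobox gene, had 6.05 and 6.55 with siRNF20, against 7.83 with siLacZ (-1.53, adjusted p = 0.219), and PDGFRA, a growth factor receptor gene of mesoderm, 7.20 and 6.70 against 8.10 (-1.15, adjusted p = 0.348).

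Among 17 trophoblast and extraembryonic genes, 9 (52.9%) were higher and 5 (29.4%) lower in both siRNF20 arrays, against 33% and 33.9% of all genes. TFAP2A, a transcription factor of trophoblast and neural crest, read 7.75 and 7.69 against 6.79, with 5.09 to 5.61 in DMSO (0.93, adjusted p = 0.454). IGFBP3, which binds insulin-like growth factors, read 8.46 and 6.82 against 6.04 (1.60, SE 0.53, adjusted p = 0.494), a difference smaller in GF120 than the gap between the 2 siRNF20 arrays. The 13 glial genes included GJA1, the 1 call, and had 5 higher and 3 lower. Of 25 mesenchymal and smooth muscle genes, 9 were higher and 10 lower (median -0.06), with ACTA2, the smooth muscle actin, at -0.92 and FN1, fibronectin, at 0.75. In DMSO ACTA2 was at 0.17 and FN1 at 0.66.

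**Figure D4:**
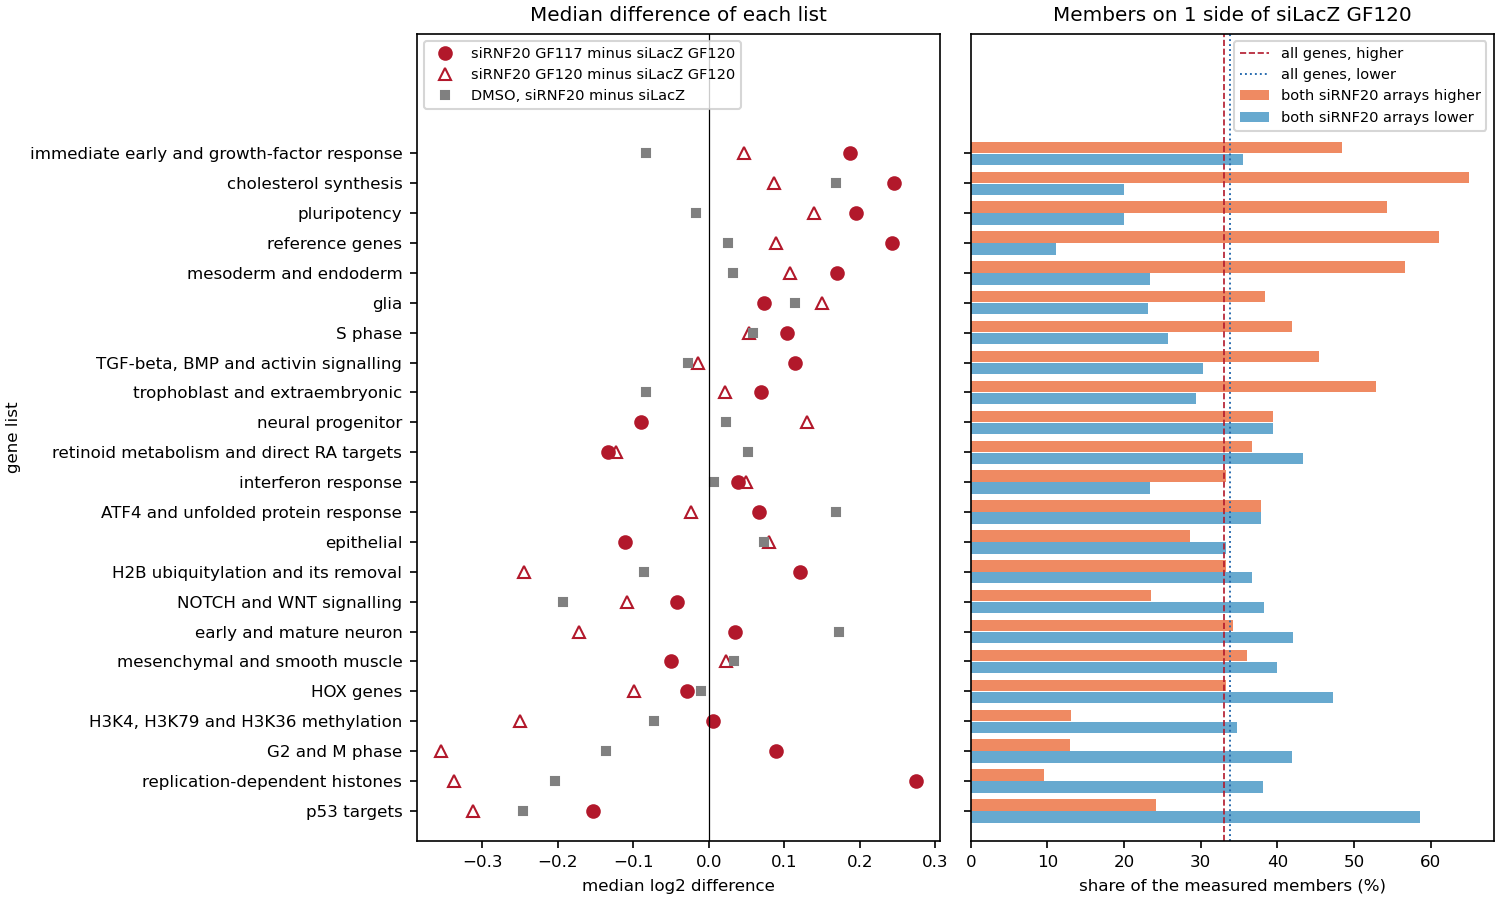
Left, median log2 difference of each of 23 gene lists (rows) for each RA siRNF20 array minus the GF120 RA siLacZ array (red) and for siRNF20 minus siLacZ in DMSO (grey); right, the share of members (percent) with both RA siRNF20 arrays higher or lower, with lines at 33% and 33.9% for all genes. Cholesterol synthesis and pluripotency lie to the higher side in both arrays and p53 targets to the lower side, while the replication-dependent histones and the G2 and M phase genes have opposite signs in the 2 arrays.

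The machinery of the mark was described next. Of 30 genes of H2B ubiquitylation and its removal, 10 (33.3%) were higher and 11 (36.7%) lower in both siRNF20 arrays, against 33% and 33.9% of all genes. The list's median was -0.04. RNF20 had the largest difference. MDM2, an E3 ligase known for p53 that can also target histones, read 8.77 and 8.80 with siRNF20, against 9.51 with siLacZ (-0.72, adjusted p = 0.272). UBE2E1, a ubiquitin-conjugating enzyme, read 8.91 and 8.43 against 7.81 (0.86, adjusted p = 0.354). The conjugating enzymes that work with RNF20, UBE2A and UBE2B, differed by 0.38 and 0.16, and USP22, the deubiquitylase of the SAGA complex, by 0.41. Of 23 genes of H3K4, H3K79 and H3K36 methylation, 3 were higher and 8 lower (median -0.08), with DPY30, a shared subunit of the H3K4 methyltransferases, at 9.95 and 9.87 against 9.32 (0.59, adjusted p = 0.286). The sign of the H2B list's median differed between the arrays, 0.12 for GF117 and -0.24 for GF120.

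Replication-dependent histone genes and G2 and M phase genes also depended on which siRNF20 array was read. The 21 histone genes had a median of 0.27 in GF117 and -0.34 in GF120, and the 31 G2 and M phase genes 0.09 and -0.36. PTTG1, the securin gene of mitosis, was lower in both (8.93 and 8.64, against 9.61; -0.82, adjusted p = 0.434). CKS2, a cyclin-dependent kinase subunit, was higher in both (9.27 and 8.21, against 7.50; 1.24, adjusted p = 0.513). Of 31 S phase genes 13 (41.9%) were higher and 8 (25.8%) lower in both siRNF20 arrays (median 0.08), against 33% and 33.9% of all genes. PCNA, the sliding clamp of DNA replication, read 9.19 and 9.34 with siRNF20, against 7.95 with siLacZ and 8.96 to 9.55 in DMSO (1.31, SE 0.23, adjusted p = 0.115).

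Of 29 p53 targets, 17 (58.6%) were lower and 7 (24.1%) higher in both siRNF20 arrays, against 33.9% and 33% of all genes. The p53 targets had medians of -0.15 (GF117) and -0.31 (GF120). Their median in DMSO was -0.25, also below 0. SPATA18, a mitochondrial quality control gene, read 5.38 and 4.95 against 6.13 (-0.97, adjusted p = 0.575), and TP53INP1 8.21 and 7.93 against 8.82 (-0.75, adjusted p = 0.561). CDKN1A, the p21 cell cycle inhibitor, was at -0.59 and DDB2, a DNA damage sensor, at -0.56. On the other side PERP, a desmosome gene, read 8.46 and 8.23 against 7.41 (0.93, adjusted p = 0.255), and BBC3 (PUMA), which promotes apoptosis, was at 0.77.

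Of 20 genes of cholesterol synthesis, 13 (65%) were higher and 4 (20%) lower in both siRNF20 arrays (median 0.17, and also 0.17 in DMSO). The shares of all genes were 33% and 33.9%. HMGCS1, an early enzyme of the pathway, read 9.50 and 9.16 with siRNF20, against 8.02 with siLacZ (1.31, adjusted p = 0.264), and MSMO1, a sterol oxidase, 9.19 and 9.37 against 8.33 (0.96, adjusted p = 0.216). The 18 reference genes stood on the same side, 11 higher and 2 lower (median 0.14), led by B2M, the light chain of MHC class I, at 7.62 and 7.79 against 6.39 (1.31, adjusted p = 0.132). HPRT1, a purine salvage enzyme, was at 0.42. At the median the reference genes (0.14) and the ribosomal protein genes (0.17) thus stand beside the cholesterol list (0.17) and the pluripotency list (0.14), and the part of the control array in these medians was not tested.

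Signalling lists were mixed, beside shares of 33% higher and 33.9% lower in both siRNF20 arrays over all genes. Of 33 genes of TGF-beta, BMP and activin signalling, 15 were higher and 10 lower. Beside FST, the BMP antagonist GREM1 was at 1.09, and the BMP target genes ID1 and ID4 read 9.01 and 8.40 against 7.79 (0.91, adjusted p = 0.369) and 7.58 and 7.10 against 6.44 (0.89, adjusted p = 0.394). Of 34 NOTCH and WNT genes 8 were higher and 13 lower (median -0.05), with SFRP2, a secreted WNT modulator, at 8.14 and 8.35 against 9.06 (-0.81, adjusted p = 0.348). Of 31 immediate early and growth-factor response genes, 15 were higher and 11 lower (median 0.18). MYC, a growth regulator, read 6.37 and 6.22 with siRNF20, against 5.10 with siLacZ and 7.33 to 8.43 in DMSO (1.19, adjusted p = 0.362, 2 probe sets), and SPRY2, a feedback inhibitor of growth factor signalling, 7.39 and 7.14 against 6.23 (1.04, adjusted p = 0.168). DUSP5, a phosphatase of ERK, was at 5.81 in both siRNF20 arrays, against 6.66 (-0.85). The 30 interferon response genes (10 higher and 7 lower) and 29 genes of the unfolded protein response and ATF4 (11 and 11) had medians of 0.02 and 0.01, with MTHFD2, a mitochondrial folate enzyme, at 0.76 and DNAJB9, a chaperone, at 0.83.

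The promoters of 2 higher genes (GJA1 and NANOG) and 2 lower genes (CYP26B1 and H19) are shown because RA siRNF20 cells lie between RA siLacZ and DMSO cells in all 4. They are RefSeq sequences of GRCh38.p14, 250 bases before to 50 after the start of each gene, 5′ to 3′ on its own strand. The positions are chr6:121435396-121435695 (plus strand) for GJA1, chr12:7789152-7789451 (plus) for NANOG, chr2:72147813-72148112 (minus) for CYP26B1 and chr11:2001217-2001516 (minus) for H19. Capitals mark a match to a searched motif.
GJA1: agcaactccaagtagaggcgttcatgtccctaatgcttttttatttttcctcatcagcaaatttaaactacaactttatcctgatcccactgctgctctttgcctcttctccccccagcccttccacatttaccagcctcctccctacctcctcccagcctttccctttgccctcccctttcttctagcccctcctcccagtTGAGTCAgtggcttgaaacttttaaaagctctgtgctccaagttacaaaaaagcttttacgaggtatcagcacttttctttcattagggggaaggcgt
NANOG: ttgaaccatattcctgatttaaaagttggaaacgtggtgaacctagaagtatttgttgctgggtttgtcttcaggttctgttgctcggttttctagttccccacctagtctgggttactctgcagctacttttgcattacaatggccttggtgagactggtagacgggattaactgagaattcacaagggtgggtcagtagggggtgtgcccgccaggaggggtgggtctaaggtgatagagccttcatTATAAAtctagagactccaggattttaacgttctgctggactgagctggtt
CYP26B1: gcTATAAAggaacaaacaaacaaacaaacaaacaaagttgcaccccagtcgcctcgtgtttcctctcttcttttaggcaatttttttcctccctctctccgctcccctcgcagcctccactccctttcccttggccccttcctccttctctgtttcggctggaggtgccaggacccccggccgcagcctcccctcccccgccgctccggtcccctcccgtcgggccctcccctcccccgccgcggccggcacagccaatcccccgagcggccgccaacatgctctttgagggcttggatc
H19: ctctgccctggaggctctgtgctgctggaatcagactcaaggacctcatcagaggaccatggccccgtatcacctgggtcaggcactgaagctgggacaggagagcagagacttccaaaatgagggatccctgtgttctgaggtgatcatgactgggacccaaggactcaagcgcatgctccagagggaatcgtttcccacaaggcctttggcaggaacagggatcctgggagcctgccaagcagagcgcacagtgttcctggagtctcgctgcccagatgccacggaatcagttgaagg
The motifs searched on both strands were AGGTCA, the half-site of retinoid receptors, TGANTCA, the AP-1 site, and TATAAA, the letters of a TATA box. GJA1 held TGANTCA at bases 203 to 209, counted from 1 at the 5′ end. TATAAA lay at bases 250 to 255 in NANOG, at the start of the gene. In CYP26B1 it lay at bases 3 to 8, near the 5′ end of the window. A match of letters alone does not show a working site. Of 35116 promoters of the same length, 13.8% held AGGTCA, 7.71% TGANTCA and 11.5% TATAAA. The letters AGGTCA were in none of the 4 windows, and H19 held none of the 3 motifs. CpG pairs numbered 3, 5, 19 and 6 in the order shown.

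Differences were also set against gene length, since monoubiquitylated H2B is known to accompany the passage of RNA polymerase II through genes. Of the 18732 genes 99.4% had a length. In the GF120 siRNF20 array minus the control, the median was lower for longer genes, at 0.14 for genes under 5 kb, -0.06 for 20 to 50 kb and -0.25 over 200 kb. In the GF117 siRNF20 array it was 0.05 under 5 kb, 0.03 for 20 to 50 kb and 0.03 over 200 kb. The 2 arrays thus do not share the pattern. In DMSO the medians under 5 kb and over 200 kb were 0.05 and -0.12 in GF117 and 0.01 and -0.04 in GF120. Over both RA siRNF20 arrays the median over 200 kb minus that under 5 kb was -0.19. It was -0.37 without RA siRNF20 GF117, -0.02 without RA siRNF20 GF120, -0.33 with the replicate block, 0.38 with all 8 arrays and 1.03 against the GF117 RA siLacZ array.

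**Figure D5:**
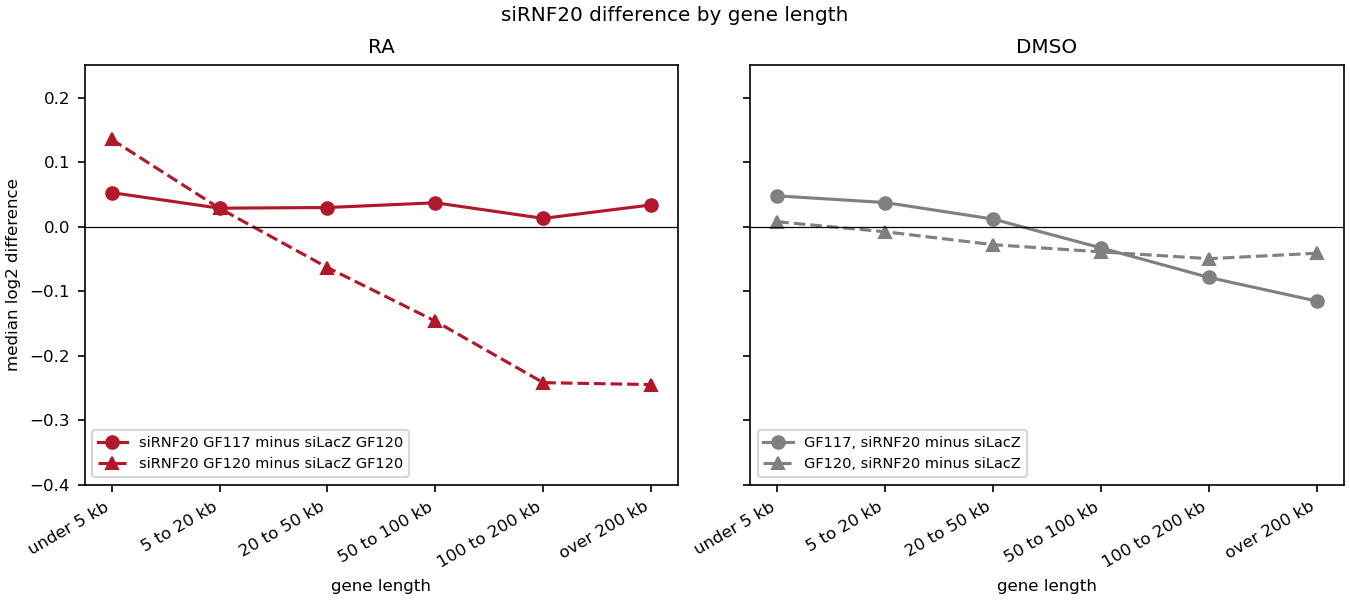
Median log2 difference, siRNF20 minus siLacZ (vertical axis), by gene length (horizontal axis, kb) for each RA siRNF20 array minus the GF120 RA siLacZ array (left) and within each GF number in DMSO (right). The line of the GF120 RA siRNF20 array runs between 0.14 under 5 kb and -0.25 over 200 kb, and that of GF117 stays between 0.01 and 0.05.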

How the data were processed

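Human exon array values of NTera2/D1 cells were used. The deposited values are linear intensities, 1 per array row (probe set) and array; the authors' background correction, normalization, tools and genome build are not given in the sources used here. Of 1384231 rows, 354600 had a single gene symbol in the platform annotation, and those with several (14898) or none (1014733) were left out. Of 19497 symbols 16426 were current, 2950 were updated and 121 kept, which gave 19426 genes.

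The log2 of the deposited intensities was taken here with no further normalization. Rows with a mean log2 value no higher than that of the median row (3.97) were dropped as dim, and each gene was summarised per array by the median over the rest. limma 3.58.1 in R 4.3.3 with data.table (version 1.17.8) fitted the 4 group means to 7 arrays, with an intensity trend. Adjusted p-values are two-sided, from limma, adjusted by Benjamini-Hochberg over 18732 genes, with a threshold of 0.05 for calls. Figures used Python 3.11.15 (pandas 2.3.3, matplotlib 3.10.9). The procedure was run on simulated data with independent noise in each array. That simulation held no deviation shared by arrays of one GF number, unlike the arrays here.

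Groups came from the sample labels. The labels do not say what the GF numbers mark. Deviations of same-numbered arrays from their group means correlated at 0.297, 0.301 and 0.364 in the 3 pairs of groups that could be checked, so the numbers were taken to pair the arrays, and values with the number as a block stand beside those of the fit without it. Members, gene lists and tests were chosen with earlier results of these data known. Named genes were RNF20, RNF40 and USP44, the 12 highest and 12 lowest differences described in the text and up to 4 members of each list with the largest difference in size. CCDC190, which rests on 1 row, was named because it was called. GDF3, XBP1, H2BC14, LMO3, MEST and RPL9 were named because they passed with the block. LIN28A, SALL4, DNMT3B, POU5F1, DPPA2, L1TD1, DHRS3, CYP26A1, RARB, UBE2A, UBE2B, USP22, CDKN1A and DDB2 are list members chosen after their values were seen. Alternatives were other arrays, filters, gene summaries, an offset, quantile normalization, no trend, a replicate block and the RA arrays alone.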

Additional observations from a re-analysis of the deposited data

Results flagged for a closer look

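Array rows with no listed gene, which enter no comparison, held differences as well. Of 137334 such rows with a level of at least 6, 2.1% were at least 2-fold higher in both RA siRNF20 arrays than in the GF120 RA siLacZ array, and 2.02% were at least 2-fold lower. The same count in DMSO gave 0.611% and 0.565%. Among rows with 1 gene the shares were 1.1% and 1.03% in RA, against 0.402% and 0.2% in DMSO. Rows of both kinds are single probe sets, and no further annotation of the unlisted ones was used here.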

How the results depend on the processing

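All values rest on 1 control array. Neither GJA1 nor CCDC190 passed when any 1 of the DMSO or siRNF20 arrays was left out, so calls that remain in those fits are of other genes. The call count of 2 in RA was 0 with all 8 arrays, without the filter on dim rows, with a stricter filter, with the mean over rows, with an offset of 16 and with quantile normalization, 1 without the intensity trend, and 12 with the 3 RA arrays alone, where limma called RNF20 (-2.02, adjusted p = 0.0217). With one array left out it lay between 0 and 2, and it was 12835 with the GF117 RA siLacZ array in place of the GF120 one. The 2-fold counts were 64 higher and 8 lower with all 8 arrays, 91 higher with the stricter filter, 101 higher with the mean over rows, 101 lower without the filter, and 40 and 29 with the offset. With one array left out they lay between 153 and 456 (higher) and between 57 and 316 (lower), and with the GF117 control they were 8460 and 2068. The DMSO count of 0 lay between 0 and 1, and the count for the difference between treatments was 11416 with the GF117 control. The length contrast (-0.19) was 0.38 with all 8 arrays, lay between -0.37 and -0.02 with one array left out, and was 1.03 with the GF117 control. RNF20 lay between -2.21 and -1.83 in those fits and at -0.0021 with the GF117 control.

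The replicate block, with the GF number as a term, gave 232 calls in RA (162 higher and 70 lower), 1 in DMSO and 4 for the difference; RNF20 was at -2.19 (adjusted p = 0.00287) and GJA1 at 1.56 (adjusted p = 0.00287). Of the 75 genes examined in the text, 35 more passed with it and none turned in sign.

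Directions turned mostly with the GF117 RA siLacZ array. With all 8 arrays these were LIPC 0.10, GABRP 0.48, KCNIP1 0.016, HOXA2 0.26, BCO1 1.58, DCX 1.21, PDGFRA 0.14, MDM2 1.32, PTTG1 0.27, SPATA18 0.019, BBC3 -0.35, TP53INP1 2.21, SFRP2 0.21 and DUSP5 0.046. With that array as the only control, where the dim filter keeps other rows, they were OPRM1 -1.40, TFF1 -0.35, LIN7B -0.80, CCDC190 -0.54, CYP26B1 0.73, LIPC 1.93, GABRP 2.63, APOBEC3H 0.42, KCNIP1 1.67, SLC6A2 0.053, MYOF 0.52, PLEKHG1 1.25, NECAB2 0.014, MAL 1.10, HOXA2 0.54, HOXD11 0.29, NR2F1 0.12, BCO1 3.49, STMN2 -0.36, ONECUT2 0.37, DCX 3.002, MEOX1 0.36, PDGFRA 1.40, GATA3 -0.18, ACTA2 0.55, MDM2 3.35, PTTG1 1.37, SPATA18 1.05, BBC3 -1.48, TP53INP1 5.18, SFRP2 1.23 and DUSP5 0.94. Otherwise RNF40 turned without RA siRNF20 GF117 (-0.0057), with the stricter filter (-0.090) and with the mean over rows (-0.11). STMN2 turned without RA siRNF20 GF120 (-0.25) and without the filter (-0.038), and GREM1 with the stricter filter (-0.045). With 1 of the DMSO or siRNF20 arrays left out, the highest values were 0.25 for RNF40 and 0.87 for STMN2. With the replicate block STMN2 was at 1.20. List medians of 19 of the 23 lists turned in sign under some alternative. The cause was not tested.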
